A study of Mus musculus with 29 samples.

Results

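mmu-miR-199a-3p, mmu-miR-199a-5p and mmu-miR-214-3p (mmu, for mouse, is left out from here on) are microRNAs (miRNAs) that are partly cut from a single non-coding transcript, Dnm3os, on the strand opposite to the gene Dnm3, and they are counted among the miRNAs of fibroblasts. The 3 were taken by name from a table of 1183 mature miRNAs, and all 3 were found in it with a value in each of 29 libraries. Small RNA was sequenced from serum and from tibialis anterior, a fast muscle of the lower leg, of C57BL/6 mice. The conditions were old mice at 24 months, mice at 6 months in a model of disuse-induced atrophy, and young control mice at 6 months. Serum had 4 old, 5 disuse and 5 young libraries, and muscle had 5 of each condition. How disuse was imposed, and whether a muscle and a serum library come from the same mouse, was not stated in the labels. These number the libraries without tying them to mice, and a p-value here sets a difference against a spread between libraries that may be partly technical.

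A miRNA is cut from a hairpin, either arm of which can be loaded into an Argonaute protein, and its seed near the 5′ end pairs with target messenger RNAs. Dnm3os is transcribed in mesenchymal tissues during development, and the transcription factor Twist1 is known to drive it. In fibroblasts miR-199a-5p is known to repress caveolin-1 and to favour activation by transforming growth factor beta, and miR-199a-3p is known as a repressor of the kinase mTOR. miR-214-3p is known to repress the Polycomb enzyme Ezh2 in muscle cells. No library came from isolated fibroblasts. In bulk RNA, fewer cells of a type and less RNA per cell cannot be told apart.

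The mature sequences are shown because they decide which reads can be told apart, with the seed (bases 2 to 8) in capitals.
miR-199a-3p: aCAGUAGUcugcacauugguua
miR-199b-3p: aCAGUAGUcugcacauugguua
miR-199a-5p: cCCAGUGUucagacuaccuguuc
miR-214-3p: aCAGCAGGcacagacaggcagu
miR-214-5p: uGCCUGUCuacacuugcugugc
All are from RefSeq (GRCm38.p6). miR-199a-3p and miR-199b-3p are the same 22 bases. miR-199a-3p and miR-214-3p share the leading 4 bases and some later positions, and have different seeds. The seed letters of miR-199a-5p also occur in the RefSeq hairpin Mir199b, which gives miR-199b-5p. miR-761 has the seed of miR-214-3p and is not among the 1183 miRNAs counted here. The hairpins of the Dnm3os locus are given with their mature arms in capitals, the 5p arm ahead of the 3p arm.
Mir199a-2: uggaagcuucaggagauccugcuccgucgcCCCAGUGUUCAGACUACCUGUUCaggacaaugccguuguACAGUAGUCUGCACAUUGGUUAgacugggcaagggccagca
Mir214: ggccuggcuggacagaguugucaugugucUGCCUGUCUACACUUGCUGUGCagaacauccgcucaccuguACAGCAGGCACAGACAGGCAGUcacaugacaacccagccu
Mir199a-2 lies at chr1:162217814-162217923 and Mir214 at chr1:162223368-162223477, both on the plus strand of GRCm38, with 5444 bases between them. In GENCODE M21 both lie within exons of Dnm3os (chr1:162217623-162225550, plus strand) and, on the other strand, in introns of Dnm3. miR-199a also has a copy, Mir199a-1, at chr9:21496495-21496564 on the minus strand, antisense within an intron of Dnm2, and miR-199b comes from Mir199b at chr2:32318460-32318569 on the plus strand, antisense within an intron of Dnm1. Both miR-199a arms can thus come from 2 hairpins, and of the 3 miRNAs miR-214-3p alone comes only from Dnm3os.

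Serum libraries held 45176 to 309133 counts and muscle libraries 254624 to 5943445. Young muscle was shallower, with a median of 535754 counts against 2825032 in old and 2298437 in disuse muscle. A count of 0 allows up to 3 counts of the total, which is 9.70 to 66.4 CPM (counts scaled to a common library size) in serum and 0.505 to 11.8 CPM in muscle, for counting error only. miR-133a-3p, a miRNA of muscle fibres, made up 0.243% ± 0.117 (SD, n = 14) of serum counts and 45.7% ± 4.46 (SD, n = 15) of muscle counts. Young serum 1 stood apart: it held 164 counts of the neural miRNAs miR-124-3p and miR-9-5p, and the other 13 serum libraries held at most 1 each.

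With CPM scaled by TMM factors within serum, the order of the group means in each serum group was miR-199a-5p, miR-199a-3p, miR-214-3p, and the miR-199a arms lay close together: 260 ± 90.2 and 222 ± 68.3 CPM in old serum (n = 4), 288 ± 83.1 and 277 ± 108 CPM in disuse serum and 380 ± 171 and 312 ± 163 CPM in young serum (n = 5 each). The means of these arms lay within 1 SD of each other in serum, whereas miR-214-3p, at 71.9 ± 33.2, 103 ± 17.1 and 54.6 ± 8.17 CPM in old, disuse and young serum, was the lowest of the 3 in 14 of 14 libraries. In muscle the 3p arm was the main miR-199a product. With CPM scaled by TMM factors within muscle, miR-199a-3p averaged 522 ± 216 CPM in old, 631 ± 83.4 in disuse and 580 ± 99.7 CPM in young muscle (SD, n = 5 each). miR-214-3p averaged 258 ± 35.4, 360 ± 33.98 and 230 ± 63.1 CPM in the same order. miR-199a-5p averaged 167 ± 15.4, 149 ± 40.8 and 144 ± 26.6 CPM. The order was thus miR-199a-3p, miR-214-3p, miR-199a-5p in the means of each muscle group, with the reservation that different miRNAs enter a library with unequal efficiency. By mean share of counts in young muscle, miR-199a-3p ranked 67, miR-214-3p 91 and miR-199a-5p 105 among 695 miRNAs.

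**Figure D1:**
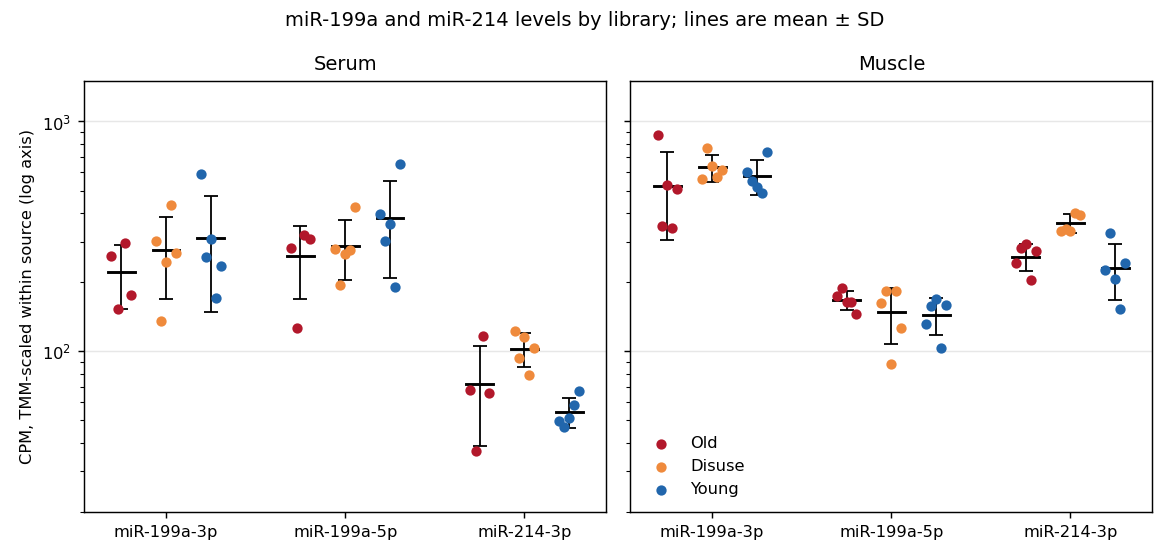
CPM of each miRNA on a log axis, scaled by TMM factors within serum (left panel) and within muscle (right panel), so heights are not on a shared scale across panels. Points are libraries, lines the mean ± SD (n = 5, old serum n = 4); in both panels the 5 disuse points of miR-214-3p lie above the 5 young points.

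Disuse was the condition with the highest mean miR-214-3p in both muscle and serum. In disuse muscle it stood at 332.3, 341, 332.7, 401 and 392 CPM (libraries 1 to 5), against 226, 326, 207, 152 and 241 CPM in young muscle. The lowest disuse library was just above the highest young library, so the groups did not overlap on this scale. By library totals they did, with 311.7 CPM in disuse muscle 2 and 320.3 CPM in young muscle 2. The log2 fold change was 0.63 ± 0.19 (SE), a 1.55-fold difference. With an adjusted p = 0.192 in edgeR's quasi-likelihood test, miR-214-3p did not pass the threshold of 0.05 over the 341 miRNAs tested, although its p-value ranked 5 of 341. In this comparison 0.293% of tested miRNAs passed, and 1.76% were higher in disuse muscle without overlap. Disuse muscle 3, the shallowest muscle library with 254624 counts, lay within the range of the deeper disuse libraries. Without young muscle 2, the highest young library, miR-214-3p passed (0.82, adjusted p = 0.0456); leaving out any other disuse or young library gave no call.

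The miR-199a arms did not differ detectably between disuse and young muscle. miR-199a-3p stood at 561 to 770 CPM in disuse and 486 to 740 CPM in young muscle (log2 fold change 0.12 ± 0.22, adjusted p = 0.881, edgeR). miR-199a-5p stood at 88.2 to 184 CPM in disuse and 103 to 168 CPM in young muscle (0.07 ± 0.20, adjusted p = 0.958). Both signs depended on the scaling: with upper-quartile factors, which shift the median of all miRNAs by -0.19, the values were -0.06 and -0.11, and miR-199a-5p was at -0.01 with library totals. Of the 3 miRNAs, 0 passed in disuse against young muscle.

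With age, none of the 3 differed detectably in muscle, a comparison in which 5.87% of the 341 miRNAs passed. miR-199a-3p varied most among old libraries, at 875, 349.7, 531, 344 and 509 CPM, against 605, 550.1, 517, 486 and 740 CPM in young muscle. Old muscle 1 was the highest and old muscle 2 and 4 the lowest of all 15 muscle libraries. The log2 fold change was -0.15 ± 0.22 (adjusted p = 0.717, edgeR), and 0.03 without old muscle 4. miR-199a-5p (146 to 188 CPM in old, 103 to 168 CPM in young) was at 0.21 ± 0.20 (adjusted p = 0.583). miR-214-3p (204 to 292 CPM in old, 152 to 326 CPM in young) was at 0.15 ± 0.19 (adjusted p = 0.676), and at -0.04 with upper-quartile factors, which shift the median of all miRNAs by -0.20.

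Old muscle was also set against disuse muscle, where age (24 against 6 months) and disuse cannot be told apart. miR-214-3p was lower in all 5 old libraries (243, 280.1, 292, 204 and 273 CPM) than in any disuse library. The log2 fold change was -0.48 ± 0.19 with adjusted p = 0.181 (edgeR), so it did not pass, where 3.52% of tested miRNAs passed and 6.45% did not overlap. miR-199a-3p had -0.27 ± 0.22 and miR-199a-5p 0.14 ± 0.20 (adjusted p = 0.580 and 0.790). This comparison and that of disuse with young muscle share the disuse libraries.

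In serum the counts behind miR-214-3p were low: 6, 7, 24 and 3 in old, 25, 11, 16, 29 and 18 in disuse and 9, 8, 6, 12 and 4 in young libraries. The 3 counts of old serum 4, the shallowest library, correspond to 66.4 CPM by library total with an exact 95% binomial interval of 13.7 to 194 CPM. Scaled by TMM factors within serum, miR-214-3p stood at 122, 93.2, 115, 79.2 and 103 CPM in disuse serum, against 49.6, 46.7, 51.2, 58.6 and 66.9 CPM in young serum. All 5 disuse libraries lay above all 5 young libraries. The log2 fold change was 0.92 ± 0.32, a 1.89-fold difference, with adjusted p = 0.358 (edgeR). It did not pass, and of the 165 tested miRNAs 0% did (0 with edgeR, DESeq2 or limma-voom, 20 at an unadjusted p under 0.05 with edgeR), while 1.21% were higher in disuse serum without overlap. Leaving out each library in turn gave 0.84 to 1.02, with 0.99 without young serum 1. The p ranked 4 of 165.

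miR-199a-3p and miR-199a-5p did not pass between disuse and young serum either. The log2 ratio of miR-214-3p to miR-199a-3p was higher by 0.98 in disuse serum and did not pass (adjusted p = 0.115, exact permutation test). miR-199a-3p was at 136 to 434 CPM in disuse and 171 to 589 CPM in young serum, where the highest library was young serum 1 (-0.16 ± 0.35, adjusted p = 0.964, edgeR). Without young serum 1 the value was 0.34. miR-199a-5p was at 195 to 423 CPM in disuse and 190.4 to 652 CPM in young serum (-0.36 ± 0.33, adjusted p = 0.745).

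Between old and young serum 9.7% of tested miRNAs passed (16), and 0 of the 3 did. Without old serum 2 the number passing was 1, and without old serum 1 it was 9. miR-214-3p stood at 67.8, 36.9, 117 and 66.0 CPM in old serum, a log2 fold change over young serum of 0.45 ± 0.36 (adjusted p = 0.442, edgeR). It rested on old serum 3, the highest old library: without it the value was -0.02. miR-199a-5p was at 126.6 to 322 CPM in old and 190.4 to 652 CPM in young serum (-0.54 ± 0.36, adjusted p = 0.421), with all 4 old libraries below the young median. miR-199a-3p was at 153 to 297 CPM in old and 171 to 589 CPM in young serum (-0.49 ± 0.39, adjusted p = 0.442). Old against disuse serum, where 2.42% of miRNAs passed, gave -0.47 ± 0.34 for miR-214-3p, -0.33 ± 0.38 for miR-199a-3p and -0.18 ± 0.36 for miR-199a-5p (adjusted p = 0.598, 0.847 and 0.893).

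The changes in serum were tested against those in muscle as an interaction over all 29 libraries. For disuse, the serum change minus the muscle change was 0.50 ± 0.36 for miR-214-3p (adjusted p = 0.759, edgeR), -0.04 ± 0.43 for miR-199a-3p and -0.18 ± 0.39 for miR-199a-5p. For age it was 0.47 ± 0.40 for miR-214-3p (adjusted p = 0.578), -0.17 ± 0.46 for miR-199a-3p and -0.59 ± 0.41 for miR-199a-5p. No difference between serum and muscle changes was detectable, where 0% of 241 miRNAs passed for disuse (0 with edgeR, 24 at an unadjusted p under 0.05) and 0.83% for age.

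**Figure D2:**
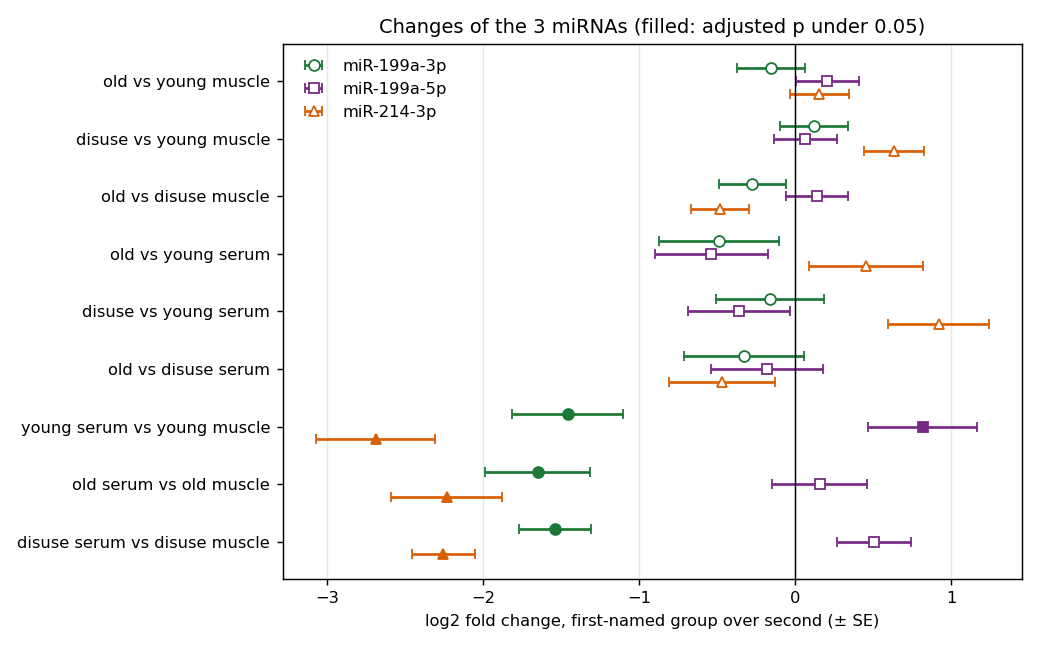
log2 fold change of each miRNA (± SE, edgeR), first-named group over second, in the 9 comparisons; filled symbols had an adjusted p under 0.05. The 7 filled symbols are all in serum against muscle, and miR-214-3p is the rightmost symbol in both disuse against young comparisons.

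miR-214-3p and miR-199a-3p were lower in serum than in muscle in all 3 conditions, whereas miR-199a-5p had values above 0. The median log2 fold change over all tested miRNAs was itself below 0, at -0.34 in young, -0.87 in old and -0.36 in disuse mice. RNA was extracted and put into libraries differently for serum and muscle in every library, so source and protocol cannot be told apart, and most miRNAs passed: 76.3% in young, 69.3% in old and 86.5% in disuse mice. miR-214-3p averaged 46.0 ± 7.13 CPM in young serum and 288 ± 121 CPM in young muscle (n = 5 each, scaled together), a log2 fold change of -2.69 ± 0.38 (adjusted p = 1.97e-06, edgeR). It was -2.23 ± 0.36 in old (61.5 ± 31.1 against 299.1 ± 43.1 CPM, n = 4 and 5) and -2.25 ± 0.20 in disuse mice (87.9 ± 11.8 against 412 ± 77.6 CPM, n = 5 each), with adjusted p = 1.01e-05 and 1.87e-08.

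miR-199a-3p was lower in serum by less: -1.46 ± 0.35 in young, -1.65 ± 0.34 in old and -1.54 ± 0.23 in disuse mice (adjusted p = 9.32e-04, 1.97e-04 and 1.01e-05, edgeR). In young mice this call was lost with library totals (-0.75, adjusted p = 0.0970), a scaling that shifts the median of all miRNAs by 0.50. miR-199a-5p went the other way in young mice, at 323 ± 151 CPM in serum and 177 ± 50.2 CPM in muscle (0.82 ± 0.35, adjusted p = 0.0389). Without young serum 1, 2 or 3 or young muscle 1, 3 or 4 that call was lost, with values of 0.68 to 0.97 over all single omissions. In disuse mice miR-199a-5p was at 0.51 ± 0.24 (adjusted p = 0.0556) and passed with library totals (1.02), with DESeq2 (0.72) and without any of disuse serum 1 to 4 or disuse muscle 3 or 4. Over all single omissions it was 0.39 to 0.76. In old mice it was at 0.16 ± 0.30 (adjusted p = 0.636).

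Ratios of counts (each plus 0.5) within a library do not depend on the scaling. The ratio of miR-199a-3p to miR-199a-5p in serum lay between 0.367 in young serum 5 and 1.57 in disuse serum 4, and in every muscle library it was above 1, at 1.86 in old muscle 2 to 7.09 in disuse muscle 3. On the log2 scale it averaged -0.30 ± 0.72 in young serum and 2.01 ± 0.28 in young muscle (SD, n = 5 each), a difference of -2.31. The difference was -1.74 in old and -2.22 in disuse mice, and serum and muscle libraries did not overlap in any condition. Each had a two-sided exact permutation p of 0.00794, the smallest these group sizes allow, and adjusted p = 0.0357 over 27 ratio tests. miR-214-3p over miR-199a-5p was also lower in serum than in muscle without overlap, with log2 differences of -3.27 in young, -2.41 in old and -2.75 in disuse mice and the same exact p and adjusted p. Lack of overlap between serum and muscle was common: it held for 63.2% of all tested single miRNAs in young, 63.6% in old and 77.6% in disuse mice. The share over all possible ratios was not computed. The 2 calls in old mice were lost without any 1 of the 9 libraries (adjusted p = 0.0689 to 0.0952, exact permutation test). With a library fewer the smallest exact p is larger, so this loss follows from the group sizes. The differences in old mice stayed at -1.91 to -1.54 for miR-199a-3p and -2.53 to -2.33 for miR-214-3p, each over miR-199a-5p. miR-214-3p over miR-199a-3p differed less between serum and muscle (-0.96, -0.67 and -0.53 in young, old and disuse mice, adjusted p = 0.0857, 0.184 and 0.228, exact permutation test).

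Within each source the ratio of miR-214-3p to miR-199a-5p was highest on average in disuse. In muscle it was 1.40, 1.49, 1.77, 1.24 and 1.87 in old libraries, 2.05, 1.87, 3.71, 2.19 and 3.09 in disuse libraries and 1.71, 2.07, 1.23, 1.47 and 1.52 in young libraries. Disuse libraries overlapped both with young muscle 2 and with old muscle 5. Disuse muscle 3, with the highest ratio, had only 22 counts of miR-199a-5p. The log2 difference of disuse from young muscle was 0.66 (two-sided exact permutation p = 0.0238, adjusted p = 0.0714 over 27 ratio tests). Without young muscle 2 it was 0.77 with adjusted p = 0.0476. In serum the ratio was 0.443, 0.489, 0.440, 0.291 and 0.248 in disuse libraries, against 0.131, 0.162, 0.153, 0.316 and 0.114 in young libraries. Young serum 4 overlapped with the disuse libraries. The log2 difference was 1.18 (exact permutation p = 0.0238, adjusted p = 0.0714), and 1.41 without young serum 4 (adjusted p = 0.0268). Between old and disuse muscle the log2 difference was -0.70 (exact permutation p = 0.0159, adjusted p = 0.0612), and -0.80 without disuse muscle 2 (adjusted p = 0.0306). In each of these omissions the library left out overlapped with the other group, so its removal separated the groups. No other single omission gave a call in these comparisons. With all libraries, none of the 18 ratio tests within muscle or serum passed.

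**Figure D3:**
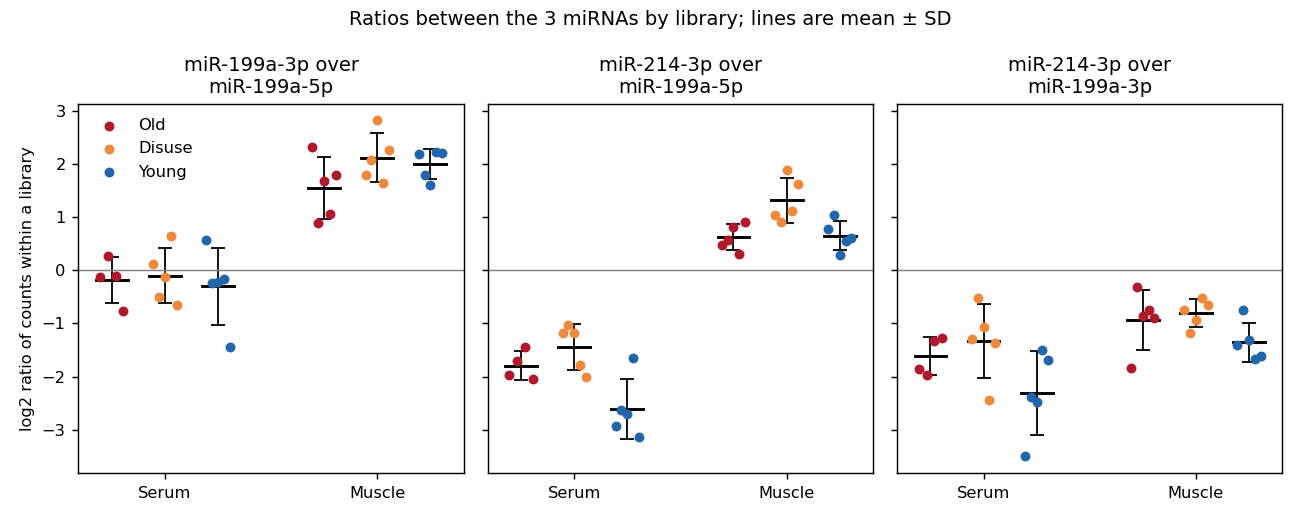
log2 ratio of counts within each library for the 3 pairs of miRNAs, by source and condition; points are libraries and lines the mean ± SD (n = 5, old serum n = 4). Serum and muscle points do not overlap within a condition in the left and middle panels. Among all tested single miRNAs, 63.2% in young, 63.6% in old and 77.6% in disuse mice did not overlap between serum and muscle.

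The identical 3p sequence of miR-199a and miR-199b was counted under 2 names. In serum miR-199a-3p took 44.4 to 69.7% of their joint counts, and the exact 95% binomial intervals of 14 of 14 libraries held the pooled share of 61.9%. In muscle it took 60.1 to 63.8%, and the intervals of 14 of 15 libraries held the pooled share of 61.4%. How reads were assigned is not given in the sources used here, so the source hairpin of these reads is uncertain. In muscle, with the same sequence at a near-constant split, the log2 fold changes of the 2 names had to be close and are not separate evidence. For disuse over young muscle, miR-199b-3p was at 0.15 ± 0.23 against 0.12 ± 0.22 for miR-199a-3p. For old over young muscle they were at -0.18 ± 0.23 against -0.15 ± 0.22. At the lower counts of serum they lay further apart, at -0.18 ± 0.40 against -0.49 ± 0.39 for old over young serum, and the age interaction had opposite signs (0.15 ± 0.47 against -0.17 ± 0.46). With both names summed, miR-199a-3p stayed on the same side of the threshold in all 11 comparisons.

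**Figure D4:**
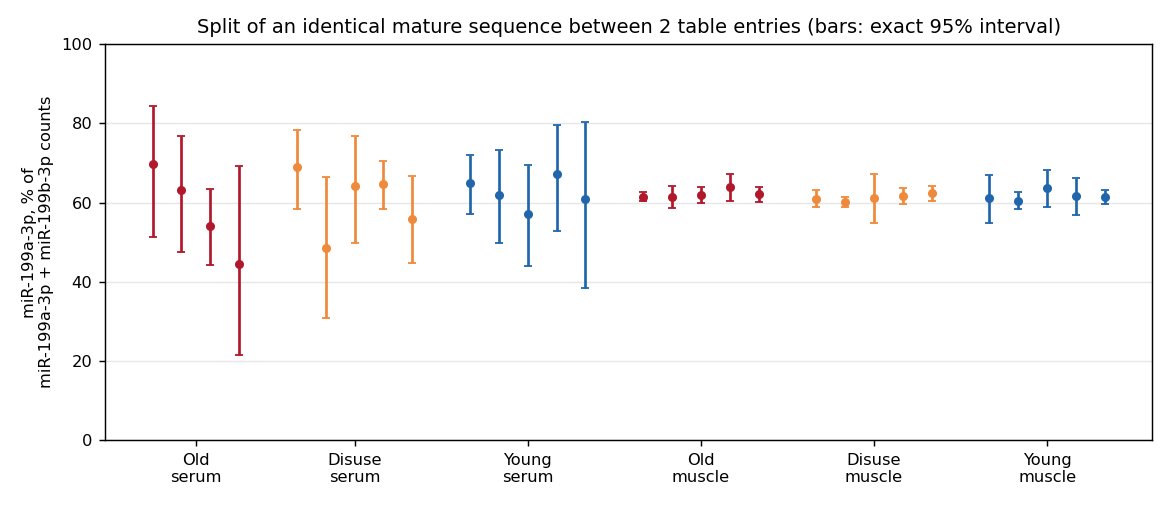
Share of miR-199a-3p in the joint counts of miR-199a-3p and miR-199b-3p per library, in percent; bars are exact 95% binomial intervals and cover counting error only. The 14 serum libraries sit between 44.4 and 69.7%, with wider intervals than the 15 muscle libraries between 60.1 and 63.8%.

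The arms told apart by sequence were scarcer. miR-199b-5p, the other strand of Mir199b, had 61 counts over the 14 serum libraries against 665 of miR-199a-5p (ratio of miR-199a-5p to miR-199b-5p 10.9), and 300 counts over the 15 muscle libraries against 5371 (ratio 17.9). miR-214-5p, the other strand of the Mir214 hairpin, had 49 counts in serum, where the count of miR-214-3p was 3.63 times as high, and 1013 counts in muscle (9.57 times). miR-214-5p was at 0.17 ± 0.26 between disuse and young muscle (adjusted p = 0.871, edgeR), where its partner was at 0.63. Between old and disuse muscle both arms had negative values (-0.53 ± 0.24 for miR-214-5p, adjusted p = 0.271). In serum miR-214-5p, at 0 to 14 counts, did not pass the filter on low counts.

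The 3 miRNAs showed no detectable covariation over libraries at this spread. In muscle (15 libraries, log2 CPM) Pearson's r and Spearman's rho were 0.28 and 0.45 for miR-199a-3p with miR-214-3p, -0.07 and -0.04 for miR-199a-3p with miR-199a-5p, and 0.19 and 0.15 for miR-199a-5p with miR-214-3p. Permutation p-values were 0.317 and 0.0936, 0.799 and 0.904, and 0.508 and 0.595. In serum (14 libraries) they were 0.52 and 0.50 for the miR-199a arms (permutation p = 0.0542 and 0.0722), 0.07 and 0.17 for miR-199a-3p with miR-214-3p (permutation p = 0.821 and 0.564), and 0.19 and 0.03 for miR-199a-5p with miR-214-3p (permutation p = 0.513 and 0.916). Adjusted over the 6 relations, the lowest permutation p was 0.325 for r and 0.281 for rho. The serum arms passed with library totals, the 1 other scaling run (r = 0.75, adjusted permutation p = 0.0133). Without the 2 libraries farthest from the median, r was 0.19, 0.25 and 0.02 for the same muscle pairs and 0.43, 0.49 and -0.12 for the serum pairs. As deviations from group means, r was 0.17, 0.07 and 0.38 in muscle and 0.47, 0.16 and 0.55 in serum.

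The miRNAs whose log2 CPM most resembled the mean of the 3 are given as a description. Over the 15 muscle libraries, of 335 compared, they were miR-106b-3p (Pearson's r = 0.85), miR-133b-3p (0.82), miR-22-5p (0.77), miR-345-5p (0.75) and miR-133a-3p (0.75). miR-133a-3p and miR-133b-3p are miRNAs of muscle fibres, and no miRNA of the fibroblast or smooth muscle lists stood among the 5. Over the 14 serum libraries, of 161 compared, they were miR-497-5p (0.75), miR-148a-5p (0.65), miR-125b-1-3p (0.65), miR-203-3p (0.64) and miR-125b-5p (0.64). All values share library depth and scaling.

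Between disuse and young muscle only 0.293% of all tested miRNAs passed, and other miRNAs of mesenchymal cells did not. In a fibroblast and mesenchymal list of 10, which holds miR-199b-3p, miR-199b-5p and miR-214-5p too, 9 were tested in muscle and 0 passed between disuse and young (median log2 fold change 0.16, against -0.002 over all tested miRNAs), and 0 of 9 passed between old and young muscle (median -0.02, against -0.01). Among them miR-10b-5p, the most abundant, was at -0.88 ± 0.35 in disuse and -0.80 ± 0.35 in old against young muscle (adjusted p = 0.442 and 0.180, edgeR). miR-31-5p was at 0.89 ± 0.32 in disuse against young muscle (adjusted p = 0.267). miR-140-3p, a miRNA of cartilage, was at 0.16 ± 0.17 and -0.02 ± 0.17. In serum 0 of 5 tested passed in disuse (median 0.03) or old (-0.18) against young, where 0% and 9.7% of all tested miRNAs passed. The summed level of the list was 3106 to 7916 CPM in disuse and 3396 to 11250 CPM in young muscle, mostly miR-10b-5p, and its members at 0 in all libraries of a muscle group numbered 0.

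Of 8 fibrosis-associated miRNAs tested in muscle, 1 rose between old and young muscle (miR-29a-3p, which targets collagen messenger RNAs, at 0.75 ± 0.16, adjusted p = 0.00294, edgeR) and 0 fell, with a median of 0.43, where 1.17% of all tested miRNAs rose. Between disuse and young muscle, where 0.293% of all tested miRNAs passed, 0 of 8 did (median -0.05), with miR-29a-3p at 0.50 ± 0.16 (adjusted p = 0.209). The summed level of this list, mostly miR-29a-3p, was 3540 to 5084 CPM in old, 3291 to 4525 CPM in disuse and 2612 to 3226 CPM in young muscle, so both old and disuse libraries lay above all young libraries. Among all tested single miRNAs, 0.88% were higher without overlap in old and 1.76% in disuse against young muscle. The part of this list in the miR-214-3p values was not tested. Of 4 smooth muscle miRNAs, 0 passed in disuse (median -0.20) or old (0.11) against young muscle, where 0.293% and 5.87% of all tested miRNAs passed. In young serum against young muscle, where 43.7% of all tested miRNAs were lower and 32.6% higher, 3 of these 4 were lower, among them miR-145a-5p at -5.98 ± 0.34 (adjusted p = 4.33e-12, edgeR), and 3 of the 4 tested members of the fibroblast list were higher, with miR-10b-5p at 3.33 ± 0.45 (adjusted p = 1.10e-06). miR-199b-3p was the member that was lower. In old mice 3 of 7 tested members of the fibroblast list were higher, 2 were lower and 2 did not pass. Of the smooth muscle list 2 of 4 were lower there, where 24.7% of all tested miRNAs were higher and 44.6% lower. In disuse mice 3 of 4 of the fibroblast list were higher and 1 lower. Of the smooth muscle list 3 of 4 were lower and 1 higher, where 38% of all tested miRNAs were higher and 48.4% lower.

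The summed levels of other cell types overlapped between disuse and young muscle. Leukocyte miRNAs summed to 21877 to 32061 CPM in disuse and 14555 to 27932 CPM in young muscle. Smooth muscle miRNAs summed to 12613 to 19460 CPM in disuse and 13470 to 18204 CPM in young muscle, endothelial miRNAs to 949.9 to 1641 and 729 to 2388 CPM, and muscle fibre miRNAs to 467117 to 539709 and 352515 to 523346 CPM. In each of the leukocyte, endothelial, smooth muscle and muscle fibre lists 0 members passed between disuse and young muscle, where 0.293% of all tested miRNAs did. The part of these lists in the miR-214-3p values was not tested.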

How the data were processed

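The authors deposited a table of counts, whole reads per mature miRNA and library, without normalization. Per the labels' protocols, RNA came from muscle by Trizol and from 300 µl of serum by a miRNeasy kit, with 2 µg or 10 ng going into TruSeq small RNA libraries. Bowtie and mm10 are named in the submitters' processing notes. The version, the miRNA annotation and how multiply matching reads were assigned were not stated there. Of 1183 miRNAs, 488 have 28 values in place of 29 and were left out. They hold 0.0518% of muscle counts if the 28 values are taken to belong to the last 28 columns. Which column lacks a value is not known, and their share of serum counts was not computed. Every column, the last included, holds counts. The 29 columns were matched to samples by their titles.

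Differences were tested with edgeR 4.0.16 (glmQLFit, glmQLFTest; R 4.3.3) with TMM factors, filterByExpr and Benjamini-Hochberg adjustment over every miRNA tested, called at an adjusted p under 0.05. Muscle libraries were fitted together, as were serum libraries. Serum was set against muscle within each condition, and interactions used all 29 libraries. CPM are scaled within each fit and are not comparable across fits. SE is the log2 fold change divided by the square root of F. Ratios used two-sided exact permutation tests, and correlations used log2 CPM (prior count 0.5) with 100000 resamples. DESeq2 1.42.0, limma-voom 3.58.1, other scalings and filters, omission of each library and a replicate block were alternatives. The fits were tested on simulated data. Same-numbered libraries did not all deviate together in any pair of groups (correlations -0.28 to 0.38, with 0 of 9 pairs of groups all over 0.1). This does not exclude that some come from the same mouse. The 3 miRNAs, the lists and the rule for resembling miRNAs (highest Pearson's r with the mean of the 3) were chosen with earlier results of these data known. Of the names, 1008 matched RefSeq. Intervals cover counting error only, since reads carried no molecular identifiers.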

Additional observations from a re-analysis of the deposited data

Results flagged for a closer look

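Dixon's test at the 95% level flagged 0 of 36 groups of 4 or 5 libraries among the values of the 3 miRNAs and their ratios.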

How the results depend on the processing

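Over settings other than omissions, 439 of the recomputed values kept direction and side of the threshold, 7 gained a call, 9 lost one and 12 changed sign; over single omissions the numbers were 578, 12, 24 and 25. The causes were not tested. miR-214-3p in disuse against young was 0.46 to 0.68 in muscle (adjusted p 0.135 to 0.345) and 0.86 to 1.10 in serum (0.108 to 0.735) over 12 settings each. With only old and young serum fitted, miR-214-3p gave no value. Sign changes were all in values without a call. With upper-quartile factors they were old against young muscle miR-214-3p (-0.039) and disuse against young muscle miR-199a-3p (-0.065) and miR-199a-5p (-0.11); the last was -0.0092 with library totals and -0.016 with a 10 CPM filter. Without a filter, disuse against young serum miR-199a-3p was 0.035 and old serum against old muscle miR-199a-5p -0.15, which was -0.023 without miR-133a-3p. The miR-199a-3p interaction was 0.0060 for age with miR-199b-3p added and 0.021 for disuse with limma-voom. The muscle correlation of miR-199a-3p with miR-214-3p was -0.015 with library totals.

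In young serum against young muscle, calls were lost for miR-199a-3p with library totals (-0.75) and for miR-199a-5p with limma-voom (0.69) and no filter (0.62). In disuse mice miR-199a-5p gained one with DESeq2's factors (0.72), library totals (1.02), DESeq2 (0.72), no filter (0.49), a 10 CPM filter (0.57) and without miR-133a-3p (0.77). The serum correlation of the miR-199a arms gained one with library totals (0.75).

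Whether equal replicate numbers mark a shared mouse is not stated in the labels. With a replicate block, no edgeR call on the 3 miRNAs changed (disuse against young muscle miR-214-3p 0.68, adjusted p = 0.184). The serum over muscle ratios lost their calls, since sign flips of 5 or 4 pairs cannot go below 0.0625 or 0.125: miR-199a-3p over miR-199a-5p was -2.31, -1.68 and -2.22 and miR-214-3p over miR-199a-5p -3.27, -2.34 and -2.75 in young, old and disuse mice. The old against young serum ratio of the miR-199a arms was -0.17.

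Omitting single libraries gave ranges of age interaction miR-199a-3p -0.57 to 0.16, age interaction miR-214-3p -0.023 to 0.65, disuse interaction miR-199a-3p -0.33 to 0.21, disuse interaction miR-199a-5p -0.45 to 0.052. They were also disuse serum against disuse muscle miR-199a-5p 0.39 to 0.76, disuse against young muscle miR-199a-5p -0.017 to 0.15, disuse against young muscle miR-214-3p 0.55 to 0.82, disuse against young serum miR-199a-3p -0.39 to 0.34. Others were old serum against old muscle miR-199a-5p -0.20 to 0.41, old against disuse serum miR-199a-5p -0.35 to 0.074, old against young muscle miR-199a-3p -0.42 to 0.031, old against young serum miR-214-3p -0.024 to 0.73. Further ranges were disuse against young muscle miR-199a-3p over miR-199a-5p -0.063 to 0.23, disuse against young muscle miR-214-3p over miR-199a-3p 0.47 to 0.70, disuse against young muscle miR-214-3p over miR-199a-5p 0.52 to 0.77, old against disuse muscle miR-214-3p over miR-199a-3p -0.29 to 0.097. They were also old against disuse muscle miR-214-3p over miR-199a-5p -0.80 to -0.55, old against young muscle miR-214-3p over miR-199a-5p -0.12 to 0.064, disuse against young serum miR-199a-3p over miR-199a-5p -0.091 to 0.41, disuse against young serum miR-214-3p over miR-199a-5p 1.05 to 1.41. Others were old against disuse serum miR-199a-3p over miR-199a-5p -0.23 to 0.11, old against young serum miR-199a-3p over miR-199a-5p -0.17 to 0.33, old serum against old muscle miR-199a-3p over miR-199a-5p -1.91 to -1.54, old serum against old muscle miR-214-3p over miR-199a-5p -2.53 to -2.33. Further ranges were young serum against young muscle miR-214-3p over miR-199a-3p -1.16 to -0.66, young serum against young muscle miR-199a-5p 0.68 to 0.97.

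Over all miRNAs, 36 passed with upper-quartile factors against 20 in old and young muscle, 0 to 2 against 1 in disuse and young muscle, and in old and young serum 5 with library totals and 6 with 2 groups fitted against 16. Without a filter 5 against 0 passed in disuse and young serum and in the disuse interaction, 270 against 145 in young and 327 against 166 in disuse serum and muscle. Old and disuse serum gave 0 with library totals, a 10 CPM filter or the block against 4, and the age interaction 1 to 11 against 2. Single omissions gave 1 (without old serum 2) and 9 (without old serum 1) against 16 in old and young serum, and 0 or 1 against 4 in old and disuse serum without disuse serum 2 to 5 or old serum 1 to 3. In disuse and young muscle they gave 0 against 1 without disuse muscle 1, 2, 4 or 5 or young muscle 3 or 5, and 2 without young muscle 2. The age interaction gave 1 to 9 against 2, and the disuse interaction 1 against 0 without disuse muscle 2. Serum depth limits miR-214-3p, which had as few as 3 counts.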
